A study of Mus musculus with 12 samples.

Results

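Sorted bone marrow cells of atherosclerotic *Apoe*-/- mice were compared with those of naive controls by RNA sequencing, across every gene with enough counts for a test. The comparison used 6 of the 12 libraries of the series, 3 from C57BL/6J controls and 3 from mice carrying the *Apoe*(tm1Unc) allele, and covered 15999 of the 55421 genes in the count table. The *Apoe*-/- mice had eaten a western-type diet for 10 weeks and all mice were 20 weeks old, whereas no western diet is given for the controls, so that genotype and diet cannot be told apart. The other 6 libraries came from C57BL/6J mice after 8 weeks of angiotensin II infusion (HTN, 3 libraries) and from C57BL/6J mice 2 days after myocardial infarction (MI, 3 libraries), and they served as a second reference. The day after infarction is that of the labels, and the text of the study gives a later one for this experiment. The sort kept cells negative for Ter119, CD41 and CD45 that were CD31 high and Sca-1 positive, which is a gate for bone marrow endothelial cells. The *Apoe*(tm1Unc) allele is a constitutive null made in embryonic stem cells of a 129 strain, so that it is absent from every cell of the body, and a stretch of chromosome 7 around it can still carry 129 sequence after backcrossing. Genes within 20 Mb of *Apoe* were therefore described apart, 389 of the 15999.

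Apolipoprotein E is the ligand through which the liver clears remnant lipoproteins, and mice without it accumulate cholesterol in the blood, above all on a fat- and cholesterol-rich diet. Cells sense cholesterol through opposed transcriptional systems. Oxysterols activate the liver X receptors, which switch on exporters such as *Abca1* and *Abcg1*, while sterols keep SREBP2, the activator of cholesterol synthesis and of the LDL receptor, in an inactive form. Bone marrow endothelial cells line the sinusoids and arterioles, hold blood stem cells in place and release cytokines that act on myelopoiesis.

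The libraries held 17007088 to 25136936 counts each, so that 3 counts corresponded to 0.116 to 0.176 counts per 1000000 (CPM). The endothelial gate was only in part reflected in the transcripts. The summed level of 27 endothelial markers was 196 to 350 CPM in the controls and 224 to 362 CPM in the *Apoe*-/- libraries, against 61300 to 80600 and 35600 to 70300 CPM for 15 neutrophil markers and 17700 to 29600 and 11400 to 43800 CPM for 14 erythroid markers. *Ptprc*, which encodes the CD45 that the gate excludes, lay between 463 and 814 CPM in all 12 libraries, whereas *Cdh5*, encoding the endothelial cadherin, lay between 2.00 and 4.19 CPM. The values below are thus those of a mixed sorted fraction, in which more cells of a type and more RNA per cell cannot be told apart. *Apoe*-/- replicate 2 stood apart from the other 5 libraries compared. It had the lowest *S100a8* of the 12 libraries (1060 CPM). Its *Ebf1*, a B cell factor, was at 529 CPM against 69.4 to 110 CPM in the other 5 libraries compared. HTN replicate 4 came nearest to it in both genes, with *S100a8* at 1220 CPM and *Ebf1* at 323 CPM. *Nnt*, which is deleted in part in C57BL/6J mice, was low throughout (1.53 to 3.53 CPM).

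*Apoe* itself was checked first. Its level was 731, 717 and 894 CPM in the controls (replicates 2, 3 and 4) and 9.78, 7.28 and 14.8 CPM in the *Apoe*-/- libraries. No library of one genotype came near the other, and the HTN and MI libraries, at 450 to 1500 CPM, sat with the controls. *Apoe* (chr7:19696109-19699188, GRCm38) fell by 6.20 on the log2 scale (SE 0.45, adjusted p = 6.08e-05, edgeR quasi-likelihood test), the smallest p of all genes tested, and passed in all 14 alternative fits.

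In all, 23 of 15999 genes differed between *Apoe*-/- and control libraries at an adjusted p under 0.05 (0.144%), 17 of them higher (0.106%) and 6 lower (0.0375%). The 23 were chosen by p on these libraries, and in each of them the 3 *Apoe*-/- libraries lay beyond all 9 other libraries of the series, as they did in 2.25% of all tested genes. Of the 23, 21 also passed against the HTN and MI libraries, a contrast that uses the same *Apoe*-/- libraries and in which 84 genes passed (0.525%). The list depended on single libraries. It held 2 genes (*Apoe* and *Pdcd5-ps*) without control replicate 3, 3 genes without control replicate 2, 6 without *Apoe*-/- replicate 3 and 11 without control replicate 4. By the likelihood-ratio test that the study's methods name, 81 genes passed (0.506%), all 23 included.

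**Figure D1:**
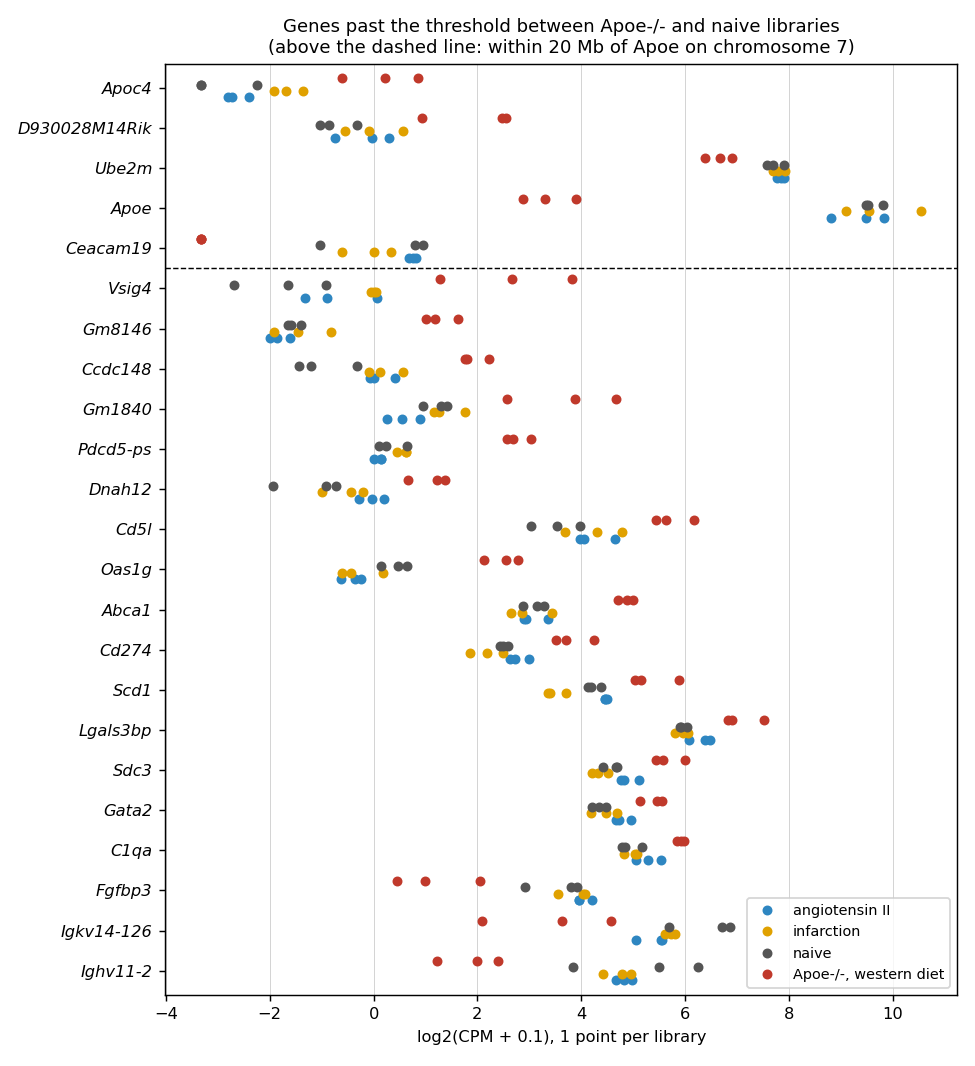
Level of each of the 23 genes past the threshold in every library, as log2(CPM + 0.1) on the x axis, with 1 point per library and 3 libraries per group. The red *Apoe*-/- points lie outside the range of all other libraries in each row. The 5 genes above the dashed line lie within 20 Mb of *Apoe*.

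A cholesterol exporter, interferon-regulated genes and macrophage genes were among those that rose outside the chromosome 7 interval. There, 18 of 15610 genes passed (0.115%), 15 higher and 3 lower. *Abca1* (chr4:53030787-53159895), the transporter that loads cellular cholesterol onto apolipoprotein A-I, stood at 7.23, 8.72 and 9.62 CPM in the controls and at 31.7, 26 and 29.4 CPM in the *Apoe*-/- libraries. All 3 values were above every other library, whose highest was 10.7 CPM. The log2 difference was 1.77 (SE 0.22, adjusted p = 0.0083, edgeR), a 3.40-fold higher level, and it was 1.83 against the HTN and MI libraries. *Abca1* passed in 12 of 14 alternative fits and reached an adjusted p of 0.0901 without control replicate 3.

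*Scd1*, the stearoyl-CoA desaturase that liver X receptors and SREBP1c induce, was at 18.1, 17.5 and 20.6 CPM in controls and at 58.6, 35.2 and 32.6 CPM in *Apoe*-/- libraries. It rose by 1.17 on the log2 scale (SE 0.20, adjusted p = 0.0482, edgeR). *Cd5l*, a secreted macrophage protein and a liver X receptor target, went from 11.5, 8.12 and 15.6 CPM to 43.2, 71.5 and 49.8 CPM, a log2 difference of 2.22 (SE 0.32, adjusted p = 0.0191, edgeR). The HTN and MI libraries held 12.7 to 27.4 CPM of *Cd5l*, which reached above the highest control but below each *Apoe*-/- library.

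Of 17 tested liver X receptor targets and efflux genes, 3 passed, all higher (*Abca1*, *Cd5l*, *Scd1*), where 0.144% of all tested genes did. The median log2 difference of the list was 0.42, against 0.01 over all tested genes. At an unadjusted p under 0.05, 7 of the 17 were higher and 0 lower, where 3.97% of all tested genes were higher and 2.0% lower. In 10 of the 17 all 3 *Apoe*-/- libraries were above all 3 controls, which held for 5.06% of all tested genes, and in 0 of the 17 all were below, against 4.45%. *Pltp*, the phospholipid transfer protein, did not pass (9.53 ± 1.25 against 22.3 ± 10.4 CPM, SD, n = 3 and 3, adjusted p = 0.292, edgeR). By the likelihood-ratio test 5 of the 17 passed, *Abcg1* and *Pltp* in addition, where 0.506% of all tested genes did. The median lay between 0.27 and 0.50 when each library was left out in turn, and by the quasi-likelihood test 0 of the 17 passed without control replicate 2 or 3 and 1 without *Apoe*-/- replicate 3.

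Of 28 tested genes of sterol synthesis and uptake, 0 passed by the quasi-likelihood test and 0 by the likelihood-ratio test or DESeq2, but 14 were lower and 0 higher at an unadjusted p under 0.05, and in 13 all *Apoe*-/- libraries were below all controls. Over all tested genes 2.0% were lower and 3.97% higher at that threshold, and in 4.45% all *Apoe*-/- libraries were below all controls. The median log2 difference of the list was -0.42. *Sqle*, squalene epoxidase, stood at 36.2, 43.2 and 59.3 CPM in controls and at 24.8, 22 and 30.7 CPM in *Apoe*-/- libraries, without overlap (log2 difference -0.84, adjusted p = 0.306, edgeR). *Msmo1*, a methylsterol oxidase of the same pathway, stood at 49.4, 51.4 and 58.2 against 33.1, 29.8 and 32.7 CPM (-0.73, adjusted p = 0.419, edgeR). *Srebf2*, which encodes SREBP2 and is its own target, stood at 36.2, 44.3 and 39.5 CPM in controls and at 21.7, 28.5 and 32.2 CPM in *Apoe*-/- libraries, without overlap. Without control replicate 4 the number that was lower at an unadjusted p under 0.05 dropped from 14 to 7, and the list median was -0.34. The 16 tested fatty acid synthesis genes had a median of 0.11 and 3 were higher at an unadjusted p under 0.05, against 3.97% overall.

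**Figure D2:**
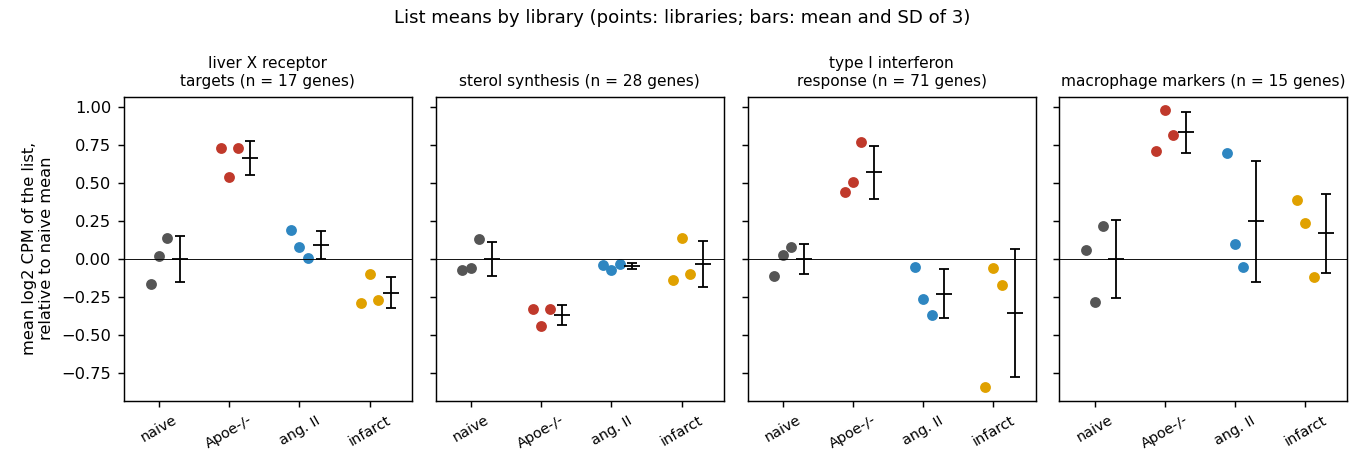
Mean log2 CPM of 4 gene lists in each of the 12 libraries, relative to the mean of the naive controls, with bars for the mean and SD of 3 libraries. The *Apoe*-/- libraries are at 0.54 to 0.73 for liver X receptor targets, -0.44 to -0.33 for sterol synthesis, 0.44 to 0.77 for the type I interferon response and 0.71 to 0.98 for macrophage markers.

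Lipid uptake, storage and lysosomal genes did not move together, with 28 tested and a median of 0.02. At an unadjusted p under 0.05, 3 were higher and 3 lower, against 3.97% and 2.0% of all tested genes. *Cd5l*, which this list shares, was the 1 member that passed by the quasi-likelihood test, where 0.144% of all tested genes did. *Gpnmb*, a glycoprotein of lysosome-rich macrophages and of osteoclasts, had the largest negative difference, with 39, 32.7 and 36.9 CPM in controls and 3.16, 1.82 and 11.8 CPM in *Apoe*-/- libraries (-2.69, adjusted p = 0.190, edgeR). *Cd36*, the fatty acid and oxidized LDL receptor, had 115 ± 31.2 and 164 ± 21.6 CPM (SD, n = 3 each), with overlapping libraries.

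Of the 71 tested genes of the type I interferon list, 2 passed, both higher (*Oas1g* and *Lgals3bp*), where 0.144% of all tested genes did. Without *Apoe*-/- replicate 3, or without control replicate 2, 3 or 4, 0 of the 71 passed. *Oas1g*, a 2'-5' oligoadenylate synthetase of the antiviral response, was at 1.01, 1.46 and 1.28 CPM in controls and at 4.27, 6.81 and 5.76 CPM in *Apoe*-/- libraries. It rose by 2.16 on the log2 scale (SE 0.31, adjusted p = 0.0191, edgeR). *Oas1g* is 97.6% identical to *Oas1a* over 1861 bases, so that the counts of each are uncertain, and the sum of both was 14.7 ± 1.54 CPM in controls and 34.8 ± 8.45 CPM in *Apoe*-/- libraries (SD, n = 3 each). *Lgals3bp*, a secreted galectin ligand induced by interferon, went from 65.1, 59.7 and 60.6 CPM to 184, 113 and 119 CPM (1.16, SE 0.19, adjusted p = 0.0342, edgeR). *Cd274*, encoding the checkpoint ligand PD-L1, which interferons also induce, went from 5.33, 5.90 and 5.51 CPM to 18.9, 11.3 and 12.9 CPM (1.37, SE 0.24, adjusted p = 0.0472, edgeR). In both genes the highest value was that of *Apoe*-/- replicate 2.

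In the list of 71 genes, 66 had a log2 difference above 0 and the median was 0.51. At an unadjusted p under 0.05, 32 were higher and 0 lower, and in 34 all *Apoe*-/- libraries lay above all controls. Over all tested genes 3.97% were higher and 2.0% lower, and 5.06% lay above in this way. By the likelihood-ratio test 7 of 71 passed, all higher, where 0.506% of all tested genes passed. *Rsad2*, the antiviral enzyme viperin, was among the 7. It stood at 177, 117 and 173 CPM in controls and 283, 404 and 368 CPM in *Apoe*-/- libraries (1.18, adjusted p = 0.0672 by the quasi-likelihood test). *Oas2* stood at 10.1 ± 2.53 and 41.5 ± 18.8 CPM (SD, n = 3 each, adjusted p = 0.155, edgeR). The contrast with the HTN and MI libraries does not share the controls but does share the *Apoe*-/- libraries. In it the median of the list was 0.72 and 18 of the 71 passed, against 0.03 and 0.525% for all tested genes. That reference was itself lower on average than the controls in this list. Its mean log2 CPM relative to controls was -0.23 in HTN and -0.36 in MI libraries. Leaving out any 1 library left 25 to 38 genes higher at an unadjusted p under 0.05 and a median of 0.38 to 0.54. *Bst2* is both in this list and among the plasmacytoid dendritic cell markers, whose sum was 670 to 741 CPM in controls and 766 to 862 CPM in *Apoe*-/- libraries, 1.16 times higher on average and without overlap. The part of these cells in the interferon values was not tested.

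The 44 tested interferon gamma GTPases and antigen presentation genes had a smaller median (0.16). By the quasi-likelihood test 0 passed. The likelihood-ratio test and DESeq2 each called 1, higher, and in both it was *H2-Q6*, a nonclassical class I gene. The likelihood-ratio test called 0.506% of all tested genes. At an unadjusted p under 0.05, 14 were higher and 0 lower, against 3.97% and 2.0% of all tested genes. *Igtp*, an interferon-inducible GTPase, had 37.2 ± 7.18 CPM in controls and 60.8 ± 7.54 CPM in *Apoe*-/- libraries (SD, n = 3 each). *Nlrc5*, the transactivator of class I genes, had 9.15 ± 1.53 and 14.6 ± 1.39 CPM. The class II transactivator *Ciita* had a log2 difference of 0.06 and the invariant chain gene *Cd74* one of 0.02.

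Promoter sequences of the cholesterol and interferon genes were read because both groups have known control elements. Liver X receptors bind a direct repeat spaced by 4 bases (DR4), searched as GGTNANNNNNGGTNA, and the interferon-stimulated response element (ISRE) was searched as GAAANNGAAA, on both strands of RefSeq promoters (GRCm38.p6) from 250 bases before to 50 after each start. Stretches with a match follow, 5' to 3' on the strand of the gene, with the match in capitals (adjoining ISRE matches overlap).
*Abca1*, chr4:53159928-53159982, minus strand: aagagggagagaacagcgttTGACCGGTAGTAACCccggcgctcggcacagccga
*Srebf1*, chr11:60210619-60210673, minus strand: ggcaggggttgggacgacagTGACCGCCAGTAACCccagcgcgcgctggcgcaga
*Oas1g*, chr5:120887614-120887651, minus strand: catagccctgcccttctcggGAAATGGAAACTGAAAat
*Oas1a*, chr5:120907526-120907565, minus strand: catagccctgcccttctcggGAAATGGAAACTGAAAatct
*Rsad2*, chr12:26456543-26456592, minus strand: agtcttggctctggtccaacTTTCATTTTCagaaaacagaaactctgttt
*Isg15*, chr4:156200855-156200916, minus strand: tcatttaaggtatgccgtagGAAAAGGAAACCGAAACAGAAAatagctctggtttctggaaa

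The DR4 match of *Abca1* lay 67 to 53 bases upstream of the start, on the strand opposite to the gene. Such a match was found for 221 of 26995 genes with a promoter (0.819%), and for 2 of the 11 liver X receptor list members that had one, *Abca1* and *Srebf1*. *Srebf1*, encoding SREBP1c, had a log2 difference of 0.34. An ISRE match was found for 1074 of 26995 genes (3.98%) and for 28 of the 57 type I interferon list members with a promoter (49.1%). Among the 24 with a promoter that were higher at an unadjusted p under 0.05, 12 had a match, close to the share in the whole list. The printed stretches of *Oas1g* and *Oas1a* are the same up to the end of the shorter. Of the 16 called genes with a promoter, *Oas1g* alone held an ISRE and *Abca1* alone a DR4 match. A match describes the letters in this window and not binding in these cells.

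Of the 15 tested macrophage markers, 2 passed, both higher (*C1qa* and *Cd5l*), where 0.144% of all tested genes did. Without *Apoe*-/- replicate 3, control replicate 2 or control replicate 3, 0 of the 15 passed. *C1qa*, a subunit of the first complement component that tissue macrophages make, stood at 36, 27.3 and 28.6 CPM in controls and at 60.1, 62.7 and 57.7 CPM in *Apoe*-/- libraries (log2 difference 0.97, SE 0.16, adjusted p = 0.0342, edgeR). *Vsig4*, the complement receptor of resident macrophages, went from 0.0561, 0.217 and 0.427 CPM to 6.23, 14 and 2.34 CPM (4.89, SE 0.71, adjusted p = 0.020, edgeR). Its 3 *Apoe*-/- libraries were all higher than any other but differed widely among themselves, and the control values rest on few counts. *Timd4*, a phosphatidylserine receptor of resident macrophages, had 0.643 ± 0.338 and 3.26 ± 1.14 CPM (SD, n = 3 each, adjusted p = 0.167, edgeR).

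At an unadjusted p under 0.05, 11 of the 15 markers were higher, where 3.97% of all tested genes were. The median log2 difference of the markers was 0.77. The summed level of the markers was 1320, 1320 and 1660 CPM in controls and 2310, 1790 and 2000 CPM in *Apoe*-/- libraries, 1.42 times higher on average and without overlap (exact permutation test, two-sided, p = 0.1, the smallest that 3 against 3 allows). In the HTN libraries the sum reached 2170 CPM. Plasma cell markers had sums of 1200, 1290 and 978 CPM in controls and 1810, 1580 and 1490 CPM in *Apoe*-/- libraries. These were 1.40 times higher on average and without overlap (exact permutation test, two-sided, p = 0.1). The plasma cell sum reached 2180 CPM in the MI libraries, above every *Apoe*-/- library, and 1780 CPM in the HTN libraries. By the quasi-likelihood test 0 of the 8 plasma cell markers passed, and 1 was higher at an unadjusted p under 0.05 (median 0.66). For the macrophage markers, the median without *Apoe*-/- replicate 3 was 0.58, and 7 were higher at an unadjusted p under 0.05. *Cd5l* belongs both to the macrophage list and to the liver X receptor list. The part of macrophages in the changes of liver X receptor and interferon genes was not tested.

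Of 8 tested basophil and mast cell markers, 1 passed (*Gata2*), where 0.144% of all tested genes did. That gene passed in none of the fits that left out *Apoe*-/- replicate 3 or 4 or any 1 of the controls. *Gata2*, a transcription factor of mast cells, basophils and stem cells that endothelial cells also express, stood at 20.2, 18.4 and 22.1 CPM in controls and 35.0, 44 and 46.6 CPM in *Apoe*-/- libraries (1.05, SE 0.17, adjusted p = 0.0342, edgeR). *Cpa3*, the mast cell carboxypeptidase, stood at 18.7, 19.1 and 18.3 against 39.6, 38.8 and 31.9 CPM (0.98, adjusted p = 0.0518, edgeR). Of the 8 markers, 6 were higher at an unadjusted p under 0.05, against 3.97% of all tested genes (median of the markers 0.87). The sum over all 9 listed markers was 2530, 3390 and 2210 CPM in controls and 7490, 6250 and 2900 CPM in *Apoe*-/- libraries, with overlap (exact permutation test, two-sided, p = 0.2). Most of the remaining marker lists stayed nearer 0. The medians were -0.05 for 27 endothelial markers, -0.38 for 15 neutrophil, -0.23 for 11 monocyte, -0.08 for 13 B cell, 0.17 for 15 T and NK cell, -0.13 for 9 eosinophil, 0.35 for 14 erythroid and -0.16 for 14 stromal and bone markers. The median of 10 megakaryocyte markers was 0.69, with 2 higher at an unadjusted p under 0.05, against 3.97% of all tested genes. Their sum was 1830, 449 and 547 CPM in controls and 1300, 904 and 1270 CPM in *Apoe*-/- libraries, with control replicate 2 the highest of all. Without that control the median was 1.27 and 10 of the 10 were higher at an unadjusted p under 0.05, and without *Apoe*-/- replicate 2 the median was 0.41 and 0 were. Plasmacytoid and conventional dendritic cell markers (14 and 9) had medians of 0.28 and 0.36, and 13 stem and progenitor markers 0.26.

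**Figure D3:**
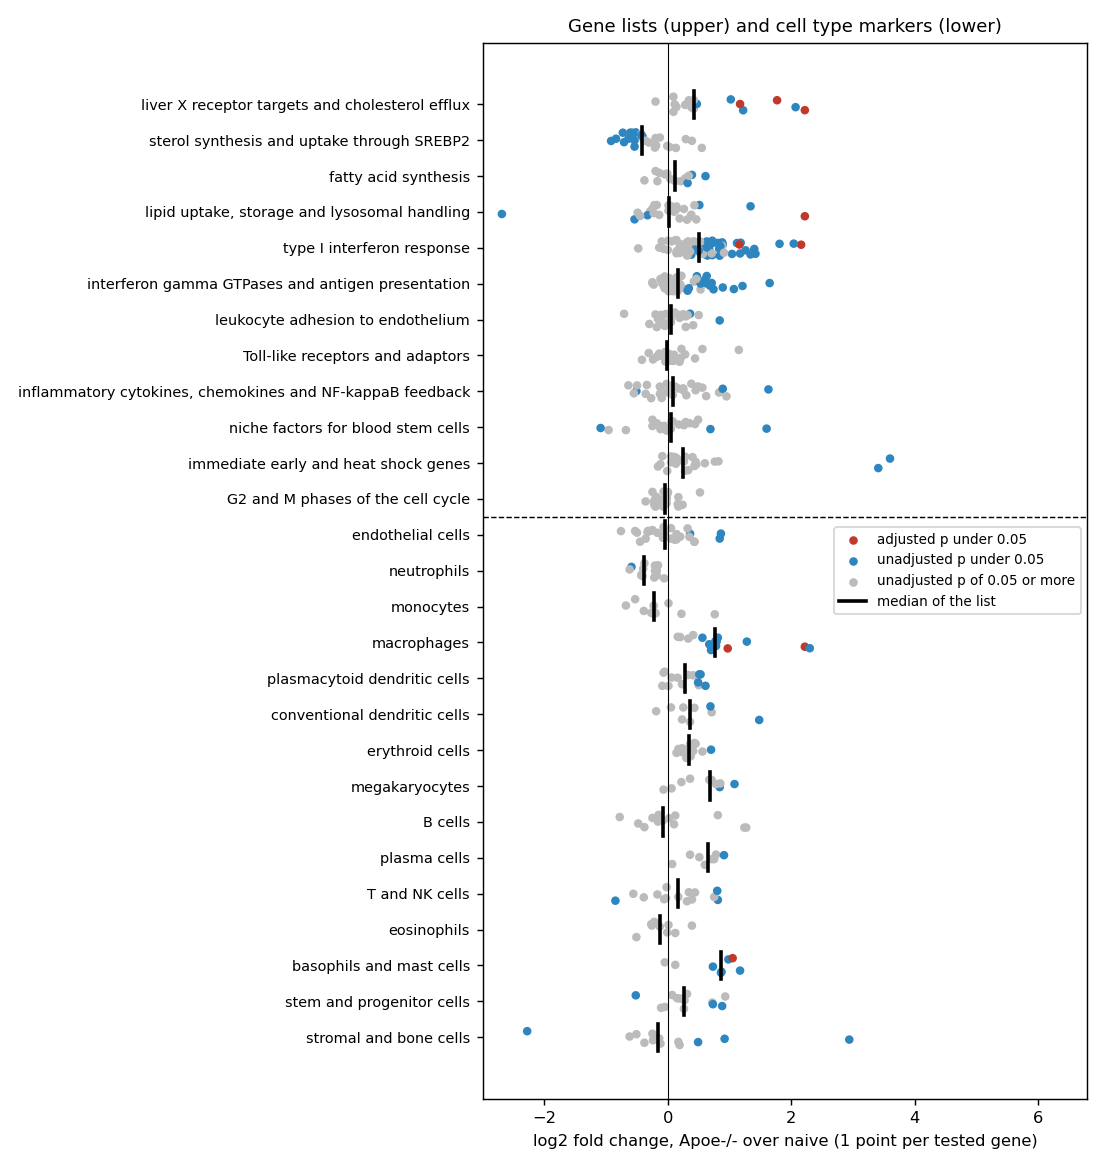
Log2 difference of every tested gene of each list, *Apoe*-/- over naive, with 1 point per gene and a black bar at the list's median. Type I interferon genes are shifted to the right (median 0.51) and sterol synthesis genes to the left (median -0.42), while Toll-like receptor genes centre near 0 (median -0.01).

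Inflammatory genes were examined because activated endothelium recruits leukocytes and feeds myelopoiesis. *Il6*, a cytokine that drives myeloid output, was at 2.07, 1.79 and 1.75 CPM in controls and at 5.87, 5.70 and 5.76 CPM in *Apoe*-/- libraries. The 3 *Apoe*-/- values were close to each other and above all other libraries, of which the HTN libraries came nearest (up to 3.68 CPM). The log2 difference was 1.63 (SE 0.32) and did not pass by the quasi-likelihood test (adjusted p = 0.0973), whereas it passed by the likelihood-ratio test (adjusted p = 0.00134) and DESeq2 (adjusted p = 0.000429). *Tnfaip3*, a feedback inhibitor of NF-kappaB, had 27.1 ± 3.90 and 50.2 ± 13 CPM (SD, n = 3 each, adjusted p = 0.205, edgeR quasi-likelihood test). It passed by the likelihood-ratio test (adjusted p = 0.0298) and DESeq2 (adjusted p = 0.0292). *Ccl2*, the monocyte chemokine, had 73.3 ± 9.24 and 51.5 ± 11 CPM. The 31 tested cytokine, chemokine and NF-kappaB genes had a median of 0.08. At an unadjusted p under 0.05, 2 were higher and 1 lower, against 3.97% and 2.0% of all tested genes. By the quasi-likelihood test 0 of the 31 passed, and by the likelihood-ratio test and DESeq2 2 passed, *Il6* and *Tnfaip3*. The likelihood-ratio test called 0.506% of all tested genes.

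Of 29 leukocyte adhesion genes 0 passed by any of the 3 tools (median 0.05). At an unadjusted p under 0.05, 2 were higher, against 3.97% of all tested genes. *Vcam1*, the vascular adhesion molecule, had 197 ± 25.2 and 263 ± 47.9 CPM, and *Pecam1*, encoding the CD31 of the gate, 20.9 ± 2.14 and 26.9 ± 4.33 CPM (SD, n = 3 each). Of 27 Toll-like receptor and adaptor genes, 0 passed by any of the 3 tools and 0 differed at an unadjusted p under 0.05. *Irak1*, a kinase downstream of these receptors, was at 671 CPM in *Apoe*-/- replicate 2 and at 113 to 151 CPM in the other 5 libraries. In HTN replicate 4 it was at 377 CPM. Among 21 niche factors 0 passed by the quasi-likelihood test or DESeq2 and 1 by the likelihood-ratio test (*Fgf1*), 2 were higher and 1 lower at an unadjusted p under 0.05, and the median was 0.05. *Igf1*, a growth factor, had 14.1 ± 1.15 and 22.7 ± 3.77 CPM, *Angpt1*, the ligand of Tie2, 15.0 ± 4.25 and 21.1 ± 3.65 CPM, and *Spp1*, encoding osteopontin, 50.2 ± 11.5 and 23.6 ± 8.53 CPM (SD, n = 3 each). Of 30 genes of G2 and M phases 0 passed by any of the 3 tools and 0 differed at an unadjusted p under 0.05 (median -0.05). Among 26 immediate early and heat shock genes, the highest differences were those of *Hspa1a* and *Hspa1b*, and they rested on *Apoe*-/- replicate 4, with 13 and 34.6 CPM against 0.336 to 1.59 CPM in the other 5 libraries.

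The remaining genes that rose outside the interval were *Sdc3*, a syndecan heparan sulfate proteoglycan, at 21.2, 25.4 and 25.8 CPM in controls and 43.2, 47.3 and 63.5 CPM in *Apoe*-/- libraries (1.09, SE 0.17, adjusted p = 0.0342, edgeR), *Ccdc148* (0.435 ± 0.230 to 3.76 ± 0.714 CPM), *Dnah12*, an axonemal dynein heavy chain (0.365 ± 0.179 to 2.07 ± 0.527 CPM), and 3 processed pseudogenes. *Sdc3*, *Cd274* and *Ccdc148* overlap genes on the opposite strand, *Pdcd5-ps* and *Apoc4* overlap genes on their own strand, and the strand setting of the counting is not given in the sources used here, so that the counts of these genes are uncertain. The control values of *Ccdc148* (6, 5 and 18 counts) and *Dnah12* (9, 3 and 11 counts) rest on few counts. Against HTN and MI libraries the adjusted p of *Dnah12* was 0.0686 and that of *Igkv14-126* 0.0942, the 2 called genes that did not pass there.

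The 3 pseudogenes were each nearly identical to a gene within the *Apoe* interval. *Pdcd5-ps* (chr1:189277443-189277823) matched *Pdcd5*, which lies 15.946 Mb from *Apoe*, base for base over 381 bases. *Gm8146* (chr1:181282046-181283892) matched *Haus5* at 97.4% and *Gm1840* (chr8:5639580-5641011) matched *Gpi1* at 98.7%. *Pdcd5-ps* was at 1.46, 1.08 and 0.970 CPM in controls and at 6.36, 8.10 and 5.81 CPM in *Apoe*-/- libraries (2.53, SE 0.26, adjusted p = 0.0021, edgeR). *Pdcd5*, a gene of programmed cell death, was at 19.1, 17.1 and 15.1 against 10.9, 9.34 and 6.16 CPM (-0.95, adjusted p = 0.136, edgeR). The pseudogene therefore took 6.37 ± 0.621% of the counts of the pair in controls and 43.9 ± 6.28% in *Apoe*-/- libraries (SD, n = 3 each). In the HTN and MI libraries it took 4.42 to 7.08%. The sum of the pair was 18.2 ± 2.28 and 15.6 ± 3.12 CPM.

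For *Gm8146* and *Haus5*, a subunit of the augmin complex, the pseudogene's share went from 2.54 ± 0.771% to 28.8 ± 8.0%, and the sum from 10.1 ± 2.68 to 8.27 ± 0.389 CPM. For *Gm1840* and *Gpi1*, glucose-6-phosphate isomerase, the share went from 0.429 ± 0.0537% to 3.07 ± 1.20%, and the sum from 525 ± 49.8 to 463 ± 143 CPM (SD, n = 3 each). In all 3 pairs the pseudogene was higher and the mean of the summed level was not. For *Gm1840* and *Gpi1* the sum could not show such a rise, because it was almost all *Gpi1*, at 332 to 593 CPM in *Apoe*-/- libraries. Since reads of near-identical copies are hard to assign to 1 of them, the counts of these 6 genes are uncertain.

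**Figure D4:**
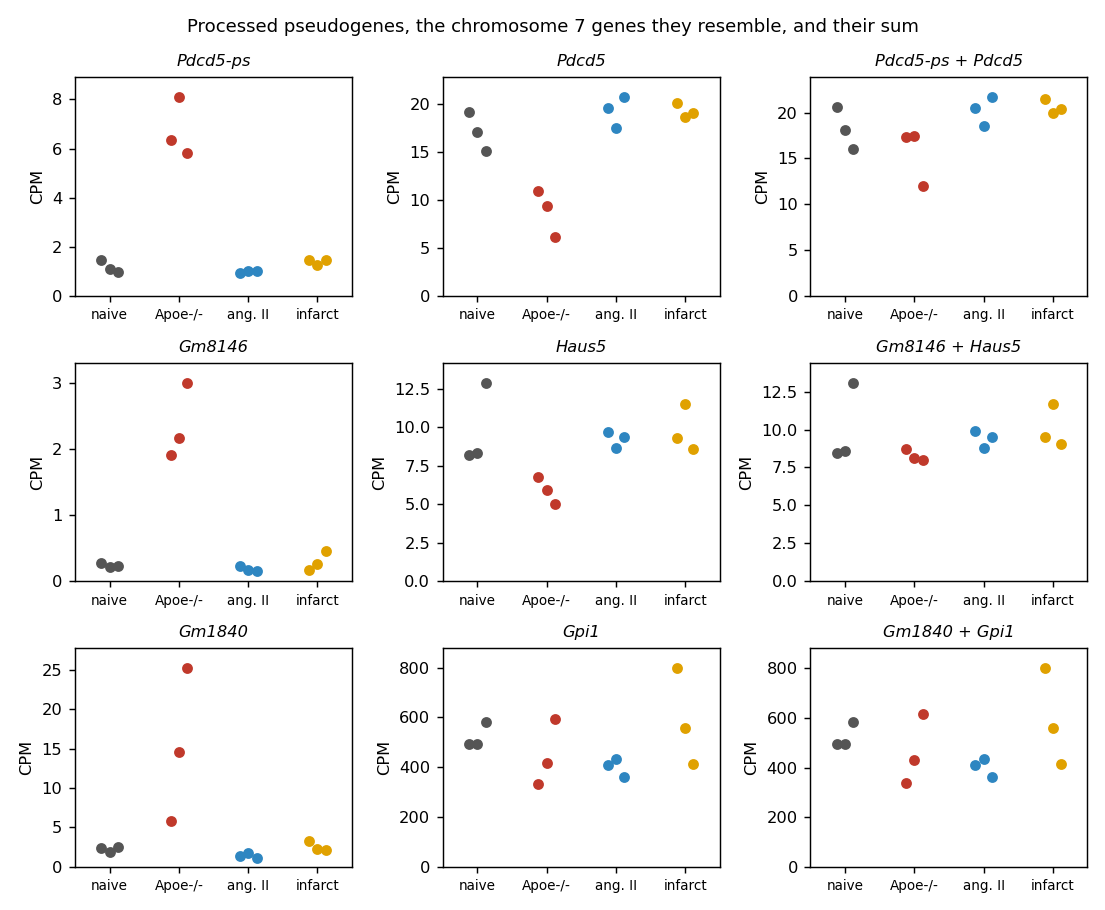
CPM of 3 processed pseudogenes past the threshold (left), of the chromosome 7 genes they resemble (middle) and of their sum (right), with 1 point per library and 3 libraries per group. The pseudogenes are higher in each *Apoe*-/- library than in any other, while in the sums the *Apoe*-/- libraries overlap the controls. For *Gm1840* the sum is almost all *Gpi1*.

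The 3 genes that fell outside the interval were the immunoglobulin variable genes *Ighv11-2* and *Igkv14-126* and *Fgfbp3*. *Ighv11-2* stood at 44.8, 76.0 and 14.3 CPM in controls and at 3.87, 2.23 and 5.14 CPM in *Apoe*-/- libraries (-3.58, SE 0.49, adjusted p = 0.0148, edgeR). *Igkv14-126* stood at 104, 117 and 51.7 against 4.18, 23.8 and 12.3 CPM (-2.76, SE 0.47, adjusted p = 0.0411, edgeR). Both showed no overlap although the controls differed widely among themselves. As background, these are the heavy and light chain variable genes that pair in the B-1a cell antibodies to phosphatidylcholine. Such V genes have close copies (98.9% identity of *Ighv11-2* to *Ighv11-1*), so that their counts are uncertain. The B cell marker median was near 0 and that of plasma cells was 0.66. *Fgfbp3*, a binding protein that releases fibroblast growth factors, stood at 15, 13.9 and 7.49 CPM in controls and 4.05, 1.88 and 1.27 CPM in *Apoe*-/- libraries (-2.32, SE 0.37, adjusted p = 0.0342, edgeR). *Ide*, the insulin-degrading enzyme, which lies close to *Fgfbp3* on chromosome 19, was at 106, 107 and 96.5 against 40.5, 54 and 68.2 CPM (-0.93, adjusted p = 0.103, edgeR).

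Within 20 Mb of *Apoe* 5 of 389 genes passed (1.29%), 2 higher and 3 lower. At an unadjusted p under 0.05, 58 of the 389 differed (14.9%), against 5.75% of the genes elsewhere. The share was 31.9% of 47 genes within 2 Mb, 28.8% of 52 genes from 2 to 5 Mb, 9.52% of 126 from 5 to 10 Mb, 9.76% of 164 from 10 to 20 Mb and 3.29% of 152 from 20 to 40 Mb. Sequence differences between the strains around *Apoe* are not in the count table, and their part in these values was not tested. Beside *Apoe*, *Ceacam19* (chr7:19875742-19887965), 0.180 Mb away, had 0.392, 1.84 and 1.63 CPM in controls and 0 counts in all 3 *Apoe*-/- libraries, at least 8.36-fold lower when each library is set at the floor of 3 counts (adjusted p = 0.024, edgeR). *Apoc4*, an apolipoprotein gene 0.018 Mb from *Apoe*, had 64 counts in the *Apoe*-/- libraries and 2 in the controls, a ratio of 33.6 (95% exact interval for counting error only 8.93 to 283; adjusted p = 0.0342, edgeR). *Apoc1*, the apolipoprotein gene between them and chosen after its values were seen, had 3.47 CPM in *Apoe*-/- replicate 3 and 0.222 to 0.650 CPM in the other 5 libraries.

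*Ube2m* (chr7:13035120-13038275), which encodes the NEDD8-conjugating enzyme UBC12, stood at 241, 206 and 191 CPM in controls and at 83.7, 102 and 120 CPM in *Apoe*-/- libraries (-1.06, SE 0.16, adjusted p = 0.024, edgeR). *D930028M14Rik*, a noncoding RNA 5.456 Mb from *Apoe* that overlaps *Pou2f2* on the other strand, had 0.513 ± 0.168 and 4.34 ± 2.19 CPM (adjusted p = 0.0345, edgeR). Its control values rest on 8, 13 and 10 counts. Among the next by p were *Gm16174*, an RNA antisense to *Bcl3* (1.40 ± 0.764 and 0.191 ± 0.0966 CPM), *Dmkn*, encoding dermokine (13.6 ± 5.61 and 3.81 ± 1.33 CPM), *Pdcd5* and *Zfp114* (0.757 ± 0.125 and 0.122 ± 0.0471 CPM; SD, n = 3 each), whose adjusted p lay between 0.0538 and 0.167 (edgeR). With 10 Mb or 40 Mb in place of 20 Mb the same count of 5 genes passed, 2.22% and 0.924% of the genes within.

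**Figure D5:**
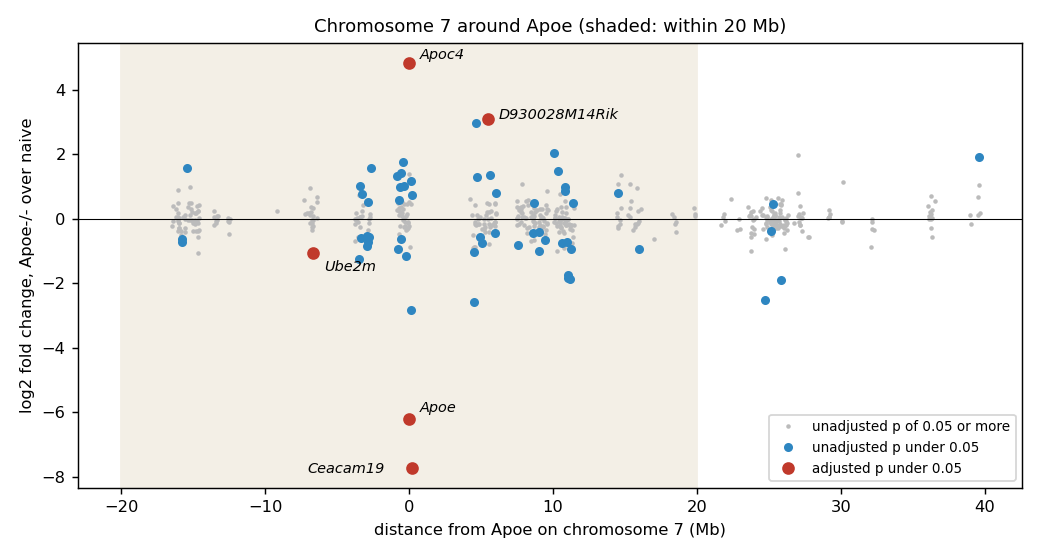
Log2 difference of each tested gene, *Apoe*-/- over naive, against its distance from *Apoe* on chromosome 7 in Mb, to 40 Mb on either side, with the interval of 20 Mb shaded. Red points passed at an adjusted p under 0.05 and blue points at an unadjusted p under 0.05, and the blue points thin out with distance, from 31.9% of genes within 2 Mb to 3.29% between 20 and 40 Mb.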

How the data were processed

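Read counts per gene, as deposited by the authors, were used for all libraries. Per the study's methods, poly(A) libraries were made with a directional kit, sequenced as single reads, aligned to GRCm38 with STAR (2.7.3a, per the submitters' processing notes) and counted per gene; the strand column used is not given in the sources used here. Genes passing filterByExpr (edgeR 4.0.16) were scaled by TMM and fitted over all 12 libraries (4 groups of 3, 8 residual degrees of freedom); *Apoe*-/- minus control was tested by quasi-likelihood F statistics, with p-values of the 15999 genes adjusted after Benjamini and Hochberg. A figure legend of the study gives as many mice as libraries in each group. CPM are per TMM-scaled library, and marker sums per library total. The scripts were tested on simulated data. Named genes were all that passed, the next 10 by p outside and the 10 first within the interval, *Apoe*, *Nnt*, *Il6*, sex-linked genes, and the 4 smallest p of each list. Some genes that this rule names are not reported here. The comparison and the gene lists were chosen with earlier results of these data known. Copies were sought with BLAST 2.17.0 among GENCODE transcripts (GRCm38), and gene positions come from the same annotation. Alternatives were the likelihood-ratio test, DESeq2 1.42.0, other scaling, filters and library sets, and a replicate block. Counting intervals are exact and cover counting error only.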

Additional observations from a re-analysis of the deposited data

How the results depend on the processing

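Against the 23 genes of the main fit, 81 passed by the likelihood-ratio test and 81 by DESeq2 (28 genes had no adjusted p), 432 with no filter on low counts, 13 with at least 10 counts in every library, 4 with only *Apoe*-/- and control libraries (2 shared with the 23), and 2 to 34 with 1 library left out. Within 20 Mb of *Apoe*, where 5 passed, the counts were 14, 15, 26, 2 and 1, and 1 to 8 with 1 library left out. Against the HTN and MI libraries, where 84 passed, they were 222 by the likelihood-ratio test, 186 by DESeq2, 541 with no filter, 143 at an adjusted p under 0.1, and 36 to 132 with 1 library left out. With a replicate block 7, 1 and 37 genes passed in these comparisons. The labels do not say that equal numbers mark shared handling, the deviations of equally numbered *Apoe*-/- and control libraries correlated at -0.08, -0.13 and 0.29, and *Apoe*-/- replicates 2 and 3 correlated best with another number. The causes of these differences were not tested.

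With 1 library left out, list medians ran from 0.41 to 1.27 for megakaryocyte, -0.25 to 0.32 for endothelial and 0.11 to 0.62 for erythroid markers, -0.08 to 0.41 for immediate early and heat shock genes, -0.20 to 0.18 for inflammatory genes, -0.19 to 0.15 for niche factors, 0.15 to 0.25 for interferon gamma genes and -0.14 to -0.02 for G2 and M genes. The log2 difference changed sign when *Apoe*-/- replicate 2 was left out for *Irak1* (-0.19 to 1.53 over the libraries left out), *Ebf1* (-0.35 to 1.66), *Pax5* (-0.39 to 1.77), *Klf4* (-0.28 to 1.11), *Eif2s3y* (-0.24 to 0.69), *Kdm5d* (-0.04 to 0.30) and *Ear2* (-0.47 to 0.03), and without replicate 4 for *Col1a1* (-0.13 to 3.49). *Apoe* passed in all 14 alternative fits. With RLE in place of TMM scaling 23 genes passed. Depth limited *Apoc4*, *Ccdc148*, *Ceacam19*, *D930028M14Rik*, *Dnah12*, *Gm8146* and *Vsig4*, whose lower group held few counts.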

Other observations

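Genes of nonclassical, patrolling monocytes were examined after their values had been seen, and are given as values. *Cd300e* stood at 2.92, 5.47 and 8.73 CPM in controls and at 18.8, 18.3 and 20.4 CPM in *Apoe*-/- libraries. *Ace*, angiotensin-converting enzyme, stood at 1.46, 1.84 and 2.72 against 6.09, 4.99 and 8.66 CPM. *Treml4* had 24.4 ± 4.95 and 50.4 ± 9.35 CPM, and *Gngt2* had 38.2 ± 3.02 and 68.1 ± 7.40 CPM (SD, n = 3 each), without overlap. Their adjusted p values were 0.0672, 0.0968, 0.172 and 0.192 by the edgeR quasi-likelihood test. *Adgre4* (26.5 ± 9.79 and 43.5 ± 7.11 CPM, adjusted p = 0.681, edgeR) was also without overlap. So was *Fcgr4* (21.3 ± 3.12 and 26.8 ± 3.21 CPM, adjusted p = 0.852, edgeR). Other genes of these cells overlapped. *Nr4a1*, their transcription factor, had 144 ± 42.7 and 195 ± 89.1 CPM, and *Spn*, encoding CD43, 97.1 ± 14.3 and 114 ± 65.8 CPM. The libraries also overlapped for *Ear2* and *Itgal*.

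*Gzma*, the cytotoxic protease granzyme A, stood at 12.9, 12.8 and 13 CPM in controls and at 6.72, 8.05 and 6.67 CPM in *Apoe*-/- libraries (adjusted p = 0.114, edgeR), whereas *Cd3e*, of T cells, stood at 1.63, 2.17 and 2.29 against 2.54, 3.58 and 4.63 CPM. *Cxcl13*, a B cell chemokine, was at 0 to 0.162 CPM in controls and at 0.407 to 1.65 CPM in *Apoe*-/- libraries, while the HTN libraries held 0.350 to 0.681 CPM.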
